A study of Rattus norvegicus with 12 samples.

Results

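Liver RNA of rats on a high-fat diet (HFD) was compared with liver RNA of rats on a normal diet, across every gene that the array measured. The comparison used 5 of the 12 arrays of the series, chosen by their labelled diet, with 1 array per animal. The HFD group held 3 Sprague-Dawley rats (an outbred laboratory strain) without therapy, labelled 24, 36 and 87, and the normal diet group held 2, labelled 2 and 4. All titles give 4 weeks. The sources used here do not give sex, age, the composition of the HFD, the full time on it or the hour of tissue collection. All rats were kept under 12 h of light and 12 h of dark a day. The normal diet array labelled 3 was left out because it held mRNA of fat tissue. Its median log2 signal over 17 hepatocyte markers was 6.24, against 14.73 to 15.06 on the 5 arrays compared, and over 12 adipocyte markers it was 13.01, against 6.17 to 7.70. The other 6 arrays came from rats that received the herbal medicine Qushi Huayu Decoction (QHD, 0.1 ml/kg daily by gavage, 3 rats) or a mixture of geniposide and chlorogenic acid (GC, 3 rats), both after 4 weeks of the HFD and for an additional 4 weeks. Those arrays served to estimate the spread between animals and appear in the last comparison below.

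Of 31099 probe sets, 20832 carried exactly 1 gene symbol, for 14218 genes, and 9459 of these genes had a signal high enough to be tested. Values are log2 MAS5 signals (a scale on which 1 unit is a doubling) and are given in the order normal diet 2 and 4, then HFD 24, 36 and 87. Signals of different probe sets cannot be ranked against each other, so only the same gene is compared between arrays. A gene is said to have risen or fallen where limma, a linear model fitted over all genes, gave a Benjamini-Hochberg adjusted p under 0.05. All such genes are referred to as called. The median log2 signal was 6.62 to 6.75 on the 5 arrays, 83 to 220 probe sets stood at 0, and the small number of arrays limits the precision. The Y-linked gene Eif2s3y stood at 10.32 to 11.11 on all 5 arrays. The deposited labels name separate animals, and no batch.

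The liver makes cholesterol, bile acids, lipoproteins and most plasma proteins, and it takes up, stores, burns and exports fat. When sterols are plentiful in its cells, the Insig proteins hold the SREBP transcription factors in the endoplasmic reticulum, and the mRNAs of cholesterol synthesis are made at a lower rate. The liver also houses immune cells, above all Kupffer cells, its resident macrophages. Cells that present antigen to helper T cells carry MHC class II molecules, whose genes are switched on together by the coactivator Ciita.

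On the HFD, 7 enzymes of cholesterol synthesis fell and 5 genes of class II antigen presentation rose. In all, 50 of 9459 genes were called (0.529%), of which 31 were higher (0.328%) and 19 lower (0.201%) on the HFD. All 50 had diet groups that did not overlap. Over all genes tested, every HFD array lay above both normal diet arrays in 17.5% and below both in 10.8%, or in 28.3% in either direction. The median log2 change of all genes was 0.03, with 5198 genes (55%) above 0. An unadjusted p under 0.05 was reached by 1364 genes, against 473 by chance. Of the 50 called genes, 25 belonged to the 50 gene lists used here and 25 to none. Each group in bulk tissue mixes cell types, so a change in the number of cells of a type and a change in RNA per cell cannot be told apart.

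**Figure D1:**
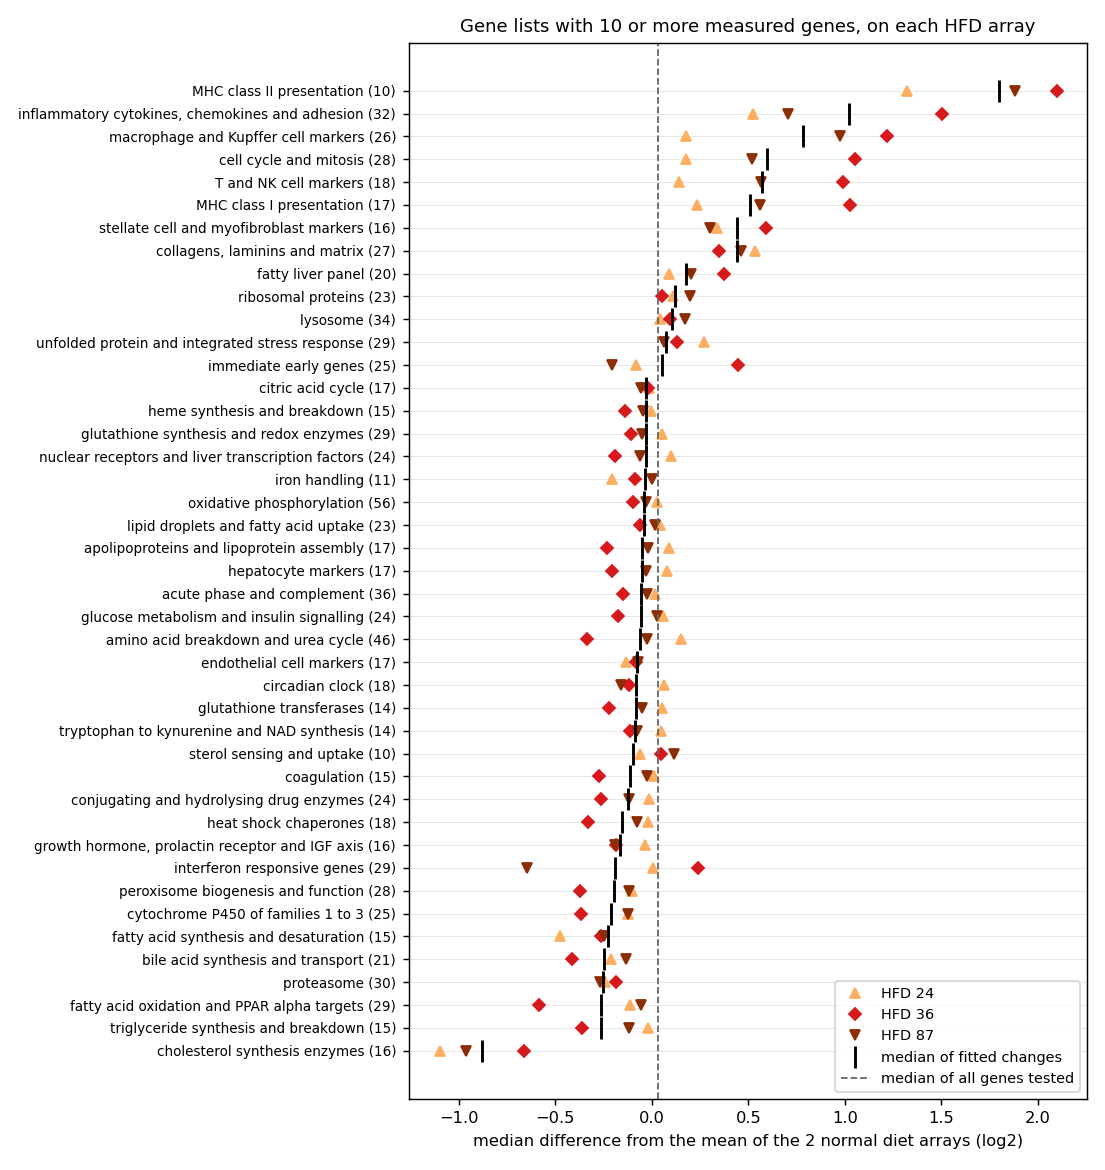
Shift of each gene list on each HFD array: the horizontal axis is the median, over the list's measured genes, of the difference from the mean of the 2 normal diet arrays (log2), the vertical axis names the lists with 10 or more measured genes (their number in brackets), coloured symbols are the 3 HFD arrays, black bars are the median of the fitted changes and the dashed line is the median of all 9459 genes. MHC class II presentation lies highest (1.32 to 2.10 on the 3 arrays), cholesterol synthesis enzymes lowest, and HFD 24 lies nearer to 0 than HFD 36 in macrophage markers (0.18 against 1.22).

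The mRNAs of cholesterol synthesis enzymes were lower on the HFD along most of the pathway. Of 16 enzymes measured, 7 were called lower and 0 higher, 12 lay below both normal diet arrays on every HFD array and all 16 had a change below 0, with a median log2 change of -0.88. Among all genes tested 0.201% were called lower and 10.8% lay below both normal diet arrays. The list was drawn up with earlier results of these data known and is not independent evidence of its direction.

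The promoters of the 3 called enzymes with the largest falls are shown because the factor NF-Y, which binds CCAAT, is known to act beside SREBP at such genes. Each line holds the 200 bases before the outermost start of the gene in RefSeq (build GRCr8), and capitals mark CCAAT or, where the motif lies on the other strand, ATTGG.
Tm7sf2, chr1:212789573-212789772, minus strand: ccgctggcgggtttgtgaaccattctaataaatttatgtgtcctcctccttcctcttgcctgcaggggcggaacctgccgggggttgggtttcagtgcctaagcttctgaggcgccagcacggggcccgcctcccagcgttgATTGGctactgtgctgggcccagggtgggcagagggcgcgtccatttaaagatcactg
Msmo1, chr16:29746913-29747112, plus strand: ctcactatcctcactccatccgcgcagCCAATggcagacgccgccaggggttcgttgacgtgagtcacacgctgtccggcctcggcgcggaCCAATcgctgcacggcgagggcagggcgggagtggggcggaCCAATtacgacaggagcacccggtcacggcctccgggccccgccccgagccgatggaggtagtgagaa
Idi1, chr17:66547525-66547724, minus strand: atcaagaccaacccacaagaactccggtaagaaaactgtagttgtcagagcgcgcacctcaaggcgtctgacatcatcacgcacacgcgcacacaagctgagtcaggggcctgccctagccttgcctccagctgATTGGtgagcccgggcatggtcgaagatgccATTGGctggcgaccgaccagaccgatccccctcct
In a window of 250 bases before to 50 after the transcript start that the RefSeq promoter table uses, searched on both strands, CCAAT was present in 11 of the 14 measured cholesterol synthesis genes that had a promoter in the table (78.6%), against 37.7% of all 27457 genes there. The form TCACNCCAC of the sterol response element was found in 0 of these 14 and in 1.13% of all genes. A match is a description of the letters and shows no binding.

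Early in the pathway, Idi1, the isomerase that prepares isoprenoid units for joining, had log2 signals of 10.72 and 11.35 on the normal diet and 8.59, 9.20 and 8.32 on the HFD. Every HFD array lay below both normal diet arrays, and the fall was 2.33 ± 0.24 (SE) on the log2 scale, or 5.04-fold (adjusted p = 0.00191). Fdft1, the squalene synthase and the first enzyme committed to sterols, stood at 11.04 and 11.14 against 9.62, 10.36 and 9.57. It fell by 1.24 ± 0.22 (adjusted p = 0.0309), with HFD 36 nearest to the normal diet arrays. Fdps, which makes farnesyl diphosphate, had a change of -1.10 ± 0.24 (adjusted p = 0.0698), without overlap of the groups, and Pmvk, phosphomevalonate kinase, had -0.75 ± 0.19 (adjusted p = 0.0859).

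Of the enzymes that turn lanosterol into cholesterol, 5 were called lower. Tm7sf2, a sterol C14 reductase, stood at 11.60 and 11.77 on the normal diet and at 8.96, 8.30 and 8.82 on the HFD. The gap between the groups was wider than the spread within either, and the change was -3.0 ± 0.24 (adjusted p = 0.000496). Cyp51, the lanosterol demethylase, stood at 11.63 and 12.05 against 9.92, 10.11 and 9.55 (-1.98 ± 0.20, adjusted p = 0.00179). Msmo1, the methylsterol monooxygenase, stood at 10.93 and 11.28 against 9.14, 9.01 and 8.60 (-2.19 ± 0.18, adjusted p = 0.000496). The HFD arrays of both enzymes lay together, with more than 1.5 log2 units between the nearest arrays of the diet groups.

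Ebp and Sc5d, a sterol isomerase and a sterol desaturase of the closing steps, had the smallest falls of the 7 called enzymes. Ebp stood at 12.25 and 12.45 against 11.50, 11.47 and 11.53, a fall of 0.85 ± 0.10 (adjusted p = 0.0036) and an HFD range of only 0.06. Sc5d stood at 12.41 and 12.08 against 11.49, 11.29 and 11.41, a fall of 0.84 ± 0.13 (adjusted p = 0.0184). Dhcr7, which makes the last reduction to cholesterol, had -1.04 ± 0.26 (adjusted p = 0.0859) and Lss, the lanosterol synthase, -0.77 ± 0.19 (adjusted p = 0.0845), both without overlap. The other 5 enzymes, named here after their values were seen, were Hsd17b7 (-0.91), Acat2 (-0.71), Mvd (-0.46), Nsdhl (-0.14) and Mvk (-0.03), of which only Hsd17b7 had groups that did not overlap. Sqle, the squalene monooxygenase, was below the signal needed for the test. Its signals were 7.68 and 8.59 on the normal diet and 5.03, 6.34 and 6.00 on the HFD, again without overlap. Further probe sets of Cyp51 (-1.56), Fdft1 (-1.12), Idi1 (-1.78) and Sc5d (-0.93 and -0.61) had changes below 0 too.

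**Figure D2:**
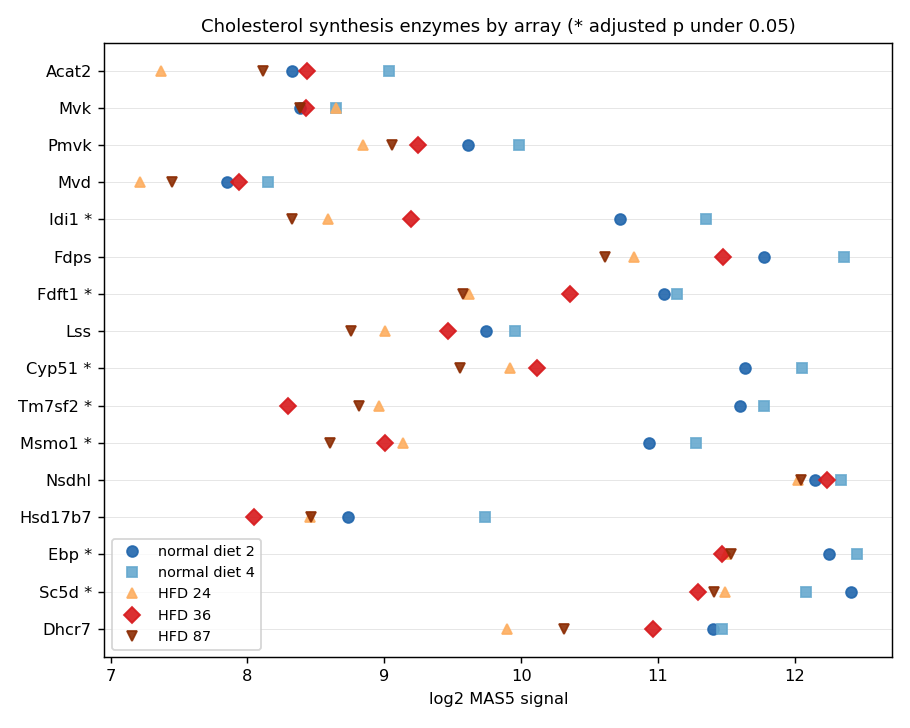
Log2 MAS5 signal (horizontal axis) of the 16 measured cholesterol synthesis enzymes, from the early steps at the top to the closing steps at the bottom, with 1 symbol per array (circles and squares, normal diet 2 and 4; upright triangle, diamond and inverted triangle, HFD 24, 36 and 87) and an asterisk on called genes. In 12 enzymes every HFD symbol lies to the left of both normal diet symbols, with Tm7sf2 furthest apart; in Mvk the symbols mix.

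Genes that sense and move sterols were split. Of 10 measured members of that list, Mylip was called higher and Insig1 lower, and the median log2 change was -0.10 (range -0.19 to 0.03 with single arrays left out or another scaling). Insig1, itself a target of SREBP and the anchor that holds it, stood at 12.95 and 13.56 on the normal diet and at 12.34, 11.48 and 12.0 on the HFD. It fell by 1.31 ± 0.24 (adjusted p = 0.0448), with HFD 24 nearest to the normal diet, and it was not called with quantile normalization. Mylip, a ubiquitin ligase that removes the LDL receptor and answers to the sterol-activated receptor LXR, stood at 7.43 and 7.60 against 8.39, 8.79 and 8.99. It rose by 1.21 ± 0.20 (adjusted p = 0.0244), and every HFD array lay above both normal diet arrays.

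Srebf1, the SREBP gene tied to fatty acid synthesis, stood at 9.55 and 9.69 against 11.24, 12.20 and 10.13. The HFD arrays lay higher but spread over more than 2 log2 units, and the change of 1.57 ± 0.46 did not pass (adjusted p = 0.142). Srebf2, the SREBP gene tied to cholesterol synthesis, was chosen for mention after its value was seen: its change was -0.34 ± 0.20 with overlapping groups. Of 9 measured genes of sterol export and esterification, 0 were called. Abcg1, a sterol exporter driven by LXR, had 9.47 and 9.48 against 9.96, 11.38 and 10.75 (1.22 ± 0.31, adjusted p = 0.0965), while another of its probe sets had -0.16. Soat1, which esterifies cholesterol for storage, had 1.02 ± 0.35, and Abcg5, a sterol exporter of the bile canaliculus, -1.49 ± 0.58 with overlapping groups.

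Marchf6 and Sec14l2 were called and belong to no list. Marchf6, a ubiquitin ligase of the endoplasmic reticulum that degrades squalene monooxygenase, stood at 12.88 and 13.04 against 12.34, 12.38 and 12.40, and it fell by 0.58 ± 0.10 (adjusted p = 0.0309). Sec14l2, a lipid-binding protein known to stimulate squalene conversion, stood at 11.58 and 11.50 against 10.97, 10.84 and 11.06, and it fell by 0.58 ± 0.11 (adjusted p = 0.0488). These 2 falls were small, and the HFD arrays lay close together. The calls depended on the processing. Sec14l2 was not called with quantile normalization or without the signal filter, and Marchf6 was not called with the mean of a gene's probe sets.

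The mRNAs of fatty acid synthesis did not move as a block. Of 15 measured genes, Acss2 was called lower and 0 higher, 11 had a change below 0, and the median was -0.23. On every HFD array 7 lay below both normal diet arrays (10.8% over all genes) and 2 above both (17.5%). Acss2, which makes acetyl-CoA from acetate and is a SREBP target, stood at 10.78 and 11.05 against 9.78, 10.11 and 9.71, a fall of 1.05 ± 0.15 (adjusted p = 0.0109). The enzymes that build long polyunsaturated fatty acids lay lower without passing. Fads2 had 11.92 and 12.08 against 10.37, 11.09 and 11.26 (-1.09 ± 0.22, adjusted p = 0.0591), Elovl2 had -0.74 ± 0.22 and Fads1 -1.40 ± 0.42, whose HFD 36 signal lay just under that of normal diet 2. The desaturases that make monounsaturated fatty acids lay higher: Scd2 stood at 8.14 and 8.16 against 9.09, 10.67 and 9.63 (1.65 ± 0.52, adjusted p = 0.173), and Scd at 11.37 and 10.67 against 12.03, 13.36 and 11.85 (1.39 ± 0.64). Fasn, the fatty acid synthase, stood at 9.33 and 9.16 against 8.42, 10.35 and 8.27, so that its HFD arrays lay on either side of the normal diet.

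Storage and export of fat gave 0 called genes in 3 lists. Among 15 genes of triglyceride synthesis and breakdown the median was -0.27 (-0.12 without HFD 36) and 6 lay without overlap below the normal diet (10.8% over all genes), among them Mgll, the monoglyceride lipase (10.67 and 10.36 against 9.78, 9.31 and 9.91; -0.85 ± 0.19, adjusted p = 0.0698), and Agpat2, an acyltransferase (-0.55 ± 0.15). Among 23 genes of lipid droplets and fatty acid uptake the median was -0.04. Fabp4, a fatty acid binding protein of macrophages and fat cells, stood at 6.05 and 5.19 against 8.02, 7.49 and 8.10, and Fabp5, its relative, at 9.66 and 8.79 against 10.42, 12.18 and 10.63. Both had groups that did not overlap, with changes of 2.25 ± 0.72 (adjusted p = 0.175) and 1.85 ± 0.66 (adjusted p = 0.222). Lpl, lipoprotein lipase, had 0.88 ± 0.28 and Lipc, hepatic lipase, -0.31 ± 0.12. Plin2, a coat protein of lipid droplets, stood at 13.25 and 13.77 against 13.21, 13.47 and 13.73 (-0.04 ± 0.25), while another of its probe sets had 0.96. Cd36, a fatty acid transporter, had -0.58 ± 0.29.

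The 17 apolipoproteins and assembly genes had a median of -0.05. Apob, which carries very-low-density lipoprotein, had 15.33 and 15.15 against 15.34, 15.01 and 15.22, and Mttp, which loads it with lipid, had -0.27 ± 0.14. Angptl8, an inhibitor of lipoprotein lipase that rises with feeding, had 9.10 and 10.12 against 10.76, 11.89 and 10.65 (1.49 ± 0.44, adjusted p = 0.149). Pltp, the phospholipid transfer protein, had 0.67 ± 0.19 and Apoa5 -0.37 ± 0.13. In these 4 genes other than Apob the diet groups did not overlap, but none passed.

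The mRNAs of fatty acid oxidation lay mildly lower, mostly on HFD 36, and no rate of oxidation was measured. Of 29 measured fatty acid oxidation genes and targets of PPAR alpha, 0 were called, 25 had a change below 0 and the median was -0.26 (-0.08 without HFD 36), with HFD 36 at -0.59 against -0.12 for HFD 24 and -0.05 for HFD 87. On every HFD array 10 lay below both normal diet arrays (10.8% over all genes) and 1 above both (17.5%). Cpt2, the inner carnitine acyltransferase of mitochondria, stood at 12.14 and 12.42 against 11.82, 11.21 and 11.98 (-0.61 ± 0.20, adjusted p = 0.168). Crat, carnitine acetyltransferase, had -0.89 ± 0.29, Eci2 -0.39 ± 0.12 and Slc25a20, the carnitine carrier, -0.50 ± 0.19. Cpt1a, the entry step, had 0.10 ± 0.31 with overlapping groups. Ppargc1a, a coactivator of mitochondrial genes, had the smallest p of the list and lay the other way, at 6.76 and 7.12 against 7.74, 7.97 and 7.75 (0.88 ± 0.20, adjusted p = 0.0751).

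Peroxisome genes had a median of -0.20, with 25 of 28 below 0, and 10 lay below both normal diet arrays on every HFD array (10.8% over all genes). Hsdl2, a peroxisomal dehydrogenase, was the called member: it stood at 13.61 and 13.49 against 12.12, 12.01 and 12.76 and fell by 1.25 ± 0.18 (adjusted p = 0.013). Another of its probe sets had -1.64. Pex13, an import protein of the peroxisome membrane, had -0.33 ± 0.09 and Pecr, a reductase, -0.43 ± 0.13, neither passing. Neither the 56 oxidative phosphorylation genes (median -0.04) nor the 17 of the citric acid cycle (median -0.03) held a called gene. An unadjusted p under 0.05 was reached by 0 of the former and 4 of the latter, among them Suclg1 (-0.49 ± 0.13) and Idh2 (0.47 ± 0.14). Slc25a4, the ADP/ATP carrier of the inner mitochondrial membrane and a member of no list, rose from 8.69 and 8.22 to 9.41, 9.96 and 9.62 (1.21 ± 0.23, adjusted p = 0.0488). It was not called with quantile normalization, an offset of 32 or the mean of a gene's probe sets.

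Bile formation gave the smallest p values among the uncalled metabolic lists. Of 21 genes, 0 were called, 16 had a change below 0 and 7 lay below both normal diet arrays on every HFD array (10.8% over all genes). Abcb4, which moves phosphatidylcholine into bile, stood at 11.86 and 12.04 against 10.98, 10.43 and 11.23 (-1.07 ± 0.21, adjusted p = 0.0523). Abcb11, the bile salt export pump, stood at 14.15 and 13.80 against 12.90, 13.07 and 13.36 (-0.86 ± 0.18, adjusted p = 0.0586). Slc10a1, which takes bile salts up from blood, stood at 14.74 and 14.50 against 14.26, 13.93 and 14.12 (-0.52 ± 0.12, adjusted p = 0.0771). All 3 transporters lay lower on every HFD array. Without HFD 24 the list held 2 genes called lower, in a fit that called 309 of 9467 genes, 54 of them lower (0.57%). Cyp7a1, the rate-limiting enzyme of bile acid synthesis, spread widely in both groups (12.57 and 10.06 against 12.92, 11.60 and 11.24). Pemt, which makes phosphatidylcholine from phosphatidylethanolamine in the liver and belongs to no list, fell from 12.80 and 12.73 to 12.03, 11.81 and 12.25 (-0.74 ± 0.12, adjusted p = 0.0246).

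Of the enzymes that handle drugs and redox stress, 2 were called. Among 25 cytochromes P450 of families 1 to 3, 0 were called, 24 had a change below 0 and the median was -0.21. On every HFD array 8 lay below both normal diet arrays (10.8% over all genes). Without HFD 36 the median was -0.10 and 2 were called lower, in a fit that called 22 of 9444 genes lower (0.233%). Cyp3a9 stood at 13.16 and 12.90 against 12.40, 11.57 and 11.53 (-1.20 ± 0.31, adjusted p = 0.104), and Cyp1a2 at 14.61 and 14.58 against 13.94, 14.38 and 13.71 (-0.59 ± 0.17, adjusted p = 0.136). In both, every HFD array lay below the normal diet. Among 24 conjugating and hydrolysing enzymes, Ugt2b1, a glucuronosyltransferase, fell from 14.02 and 13.51 to 12.58, 12.74 and 12.98 (-1.0 ± 0.18, adjusted p = 0.0315), and 18 had a change below 0. Glutathione transferases held 0 called genes among 14, with no unadjusted p under 0.05.

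Among 29 glutathione and redox genes, Gclm, the modifier subunit of glutamate cysteine ligase, the gate of glutathione synthesis, fell from 12.48 and 12.26 to 11.55, 11.41 and 11.54 (-0.87 ± 0.11, adjusted p = 0.00902). Its partner Gclc had -0.28 ± 0.11. Nqo1, a quinone reductase driven by the same factor NRF2, lay the other way, at 10.03 and 9.87 against 11.12, 12.88 and 11.94 (2.03 ± 0.60, adjusted p = 0.145). The NRF2 gene itself, Nfe2l2, had 0.60 ± 0.24 with overlapping groups, and Txnrd1 -0.49 ± 0.21. These values show no common direction, and the median of the list was -0.03.

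In heme metabolism Alas1, the rate-limiting enzyme of heme synthesis in liver, fell from 14.40 and 13.87 to 12.84, 12.11 and 12.50 (-1.65 ± 0.26, adjusted p = 0.0246), and no other of the 15 genes was called. Blvra, a biliverdin reductase, had 0.60 ± 0.18 and Blvrb -0.56 ± 0.22. Of 11 iron genes 0 were called. Slc40a1, the iron exporter ferroportin, which Kupffer cells carry, had 12.29 and 12.20 against 12.51, 12.82 and 13.11 (0.56 ± 0.16, adjusted p = 0.132).

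Glucose, amino acid and hormone lists held no called gene. Over 24 genes of glucose metabolism and insulin signalling the median was -0.06, and Insr, the insulin receptor, stood at 9.49 and 9.49 against 8.96, 8.95 and 9.11 (-0.49 ± 0.16, adjusted p = 0.177). Irs2, an adaptor of that receptor, had -0.43 ± 0.19, Pfkfb1, which sets fructose 2,6-bisphosphate, 0.85 ± 0.26, and Pck1, the gate of glucose production, -0.11 ± 0.12. The insulin receptor pair lay lower on every HFD array. Among 46 genes of amino acid breakdown and the urea cycle only Hal, histidine ammonia lyase, reached an unadjusted p under 0.05 (-0.91 ± 0.25). Prlr, the prolactin receptor, stood at 9.34 and 10.81 against 8.02, 7.59 and 8.98 (-1.87 ± 0.56, adjusted p = 0.149). Of 24 nuclear receptors and liver transcription factors none reached an unadjusted p under 0.05, and Hnf4a had -0.19 ± 0.13. The 17 hepatocyte markers held 0 called genes and 0 whose groups did not overlap, with Alb at 0.05 ± 0.14 and Apoa1 at 0.03 ± 0.11.

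Class II antigen presentation had the highest median of the lists with 10 or more measured genes. Of 10 measured genes, 5 were called higher and 0 lower, against 0.328% of all genes tested, and in all 10 every HFD array lay above both normal diet arrays, against 17.5%. The median log2 change was 1.80. Promoters of 3 called chains are shown because class II genes share a conserved Y box, a CCAAT motif close to the start, which NF-Y binds beside the factors that recruit Ciita. As above, each line holds the 200 bases before the gene's outermost start (RefSeq, GRCr8) with CCAAT or ATTGG in capitals.
RT1-Ba, chr20:4576857-4577056, plus strand: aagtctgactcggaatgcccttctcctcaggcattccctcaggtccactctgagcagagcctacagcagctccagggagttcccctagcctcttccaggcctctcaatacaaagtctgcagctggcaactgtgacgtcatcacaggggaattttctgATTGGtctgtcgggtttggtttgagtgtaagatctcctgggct
RT1-Da, chr20:4515193-4515392, plus strand: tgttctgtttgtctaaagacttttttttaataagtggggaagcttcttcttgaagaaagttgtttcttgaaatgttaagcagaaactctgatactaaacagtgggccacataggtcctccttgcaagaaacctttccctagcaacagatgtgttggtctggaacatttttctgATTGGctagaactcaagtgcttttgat
RT1-Db1, chr20:4560183-4560382, minus strand: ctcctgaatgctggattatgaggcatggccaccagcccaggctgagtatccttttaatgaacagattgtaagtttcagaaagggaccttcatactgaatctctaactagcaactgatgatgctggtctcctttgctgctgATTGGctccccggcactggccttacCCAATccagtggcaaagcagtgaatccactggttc
Counted from the transcript start of the promoter table, the motif began at -43 bases in RT1-Ba, -49 in RT1-Da and -80 and -55 in RT1-Db1. That start lies 22 bases inside the gene's outermost start in RT1-Da, 20 bases inside it in RT1-Db1 and at it in RT1-Ba. Of the 8 measured class II genes with a promoter in the table, 7 held CCAAT in the same window of 250 bases before to 50 after that transcript start (87.5%), against 37.7% of all genes. In Cd74 the only match began at -189, and in the cathepsin Ctss it began at 18, after the start. The share therefore does not count Y boxes close to the start.

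RT1-Ba, RT1-Da and RT1-Db1 encode chains of the rat class II molecules. RT1-Ba stood at 10.84 and 11.52 on the normal diet and at 12.78, 13.54 and 13.64 on the HFD, a rise of 2.14 ± 0.28, or 4.40-fold (adjusted p = 0.0109). RT1-Db1 stood at 10.07 and 10.54 against 11.79, 12.45 and 12.70 (2.01 ± 0.27, adjusted p = 0.00969), and RT1-Da at 11.67 and 12.68 against 13.59, 14.28 and 14.17 (1.83 ± 0.30, adjusted p = 0.0281). HFD 24 was the lowest HFD array for each chain and still lay above the normal diet. RT1-Bb, the partner of RT1-Ba, stood at 9.30 and 11.04 against 11.83, 12.86 and 11.90, a change of similar size (2.03) with an SE of 3.44, and a weaker probe set of it had -0.11. Second probe sets of RT1-Ba (2.84) and RT1-Db1 (2.33) lay higher. Class II chains resemble each other and vary between rats, so their probe sets may share signal.

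Cd74, the invariant chain that guards the peptide groove, stood at 12.31 and 12.96 against 14.15, 14.48 and 14.55. It rose by 1.76 ± 0.17 (adjusted p = 0.00179), with more than 1 log2 unit between the nearest arrays of the diet groups. Marchf1, a ubiquitin ligase that removes class II molecules from the cell surface, rose from 7.54 and 7.83 to 8.92, 9.78 and 9.54 (1.72 ± 0.25, adjusted p = 0.013). Ciita, the coactivator, stood at 7.36 and 7.36 against 8.14, 10.37 and 9.74 (2.06 ± 0.50, adjusted p = 0.0877). The peptide exchangers RT1-DMb (1.39 ± 0.30, adjusted p = 0.0712) and RT1-DMa (1.34 ± 0.32, adjusted p = 0.0859) and the cathepsin Ctss (0.74 ± 0.22) did not pass. Without HFD 24, 9 of the 10 genes were called higher, in a fit that called 2.69% of all genes higher. Without HFD 87 it was 3 (0.148% of all genes), and without normal diet 2 it was 1 (0.0633%).

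**Figure D3:**
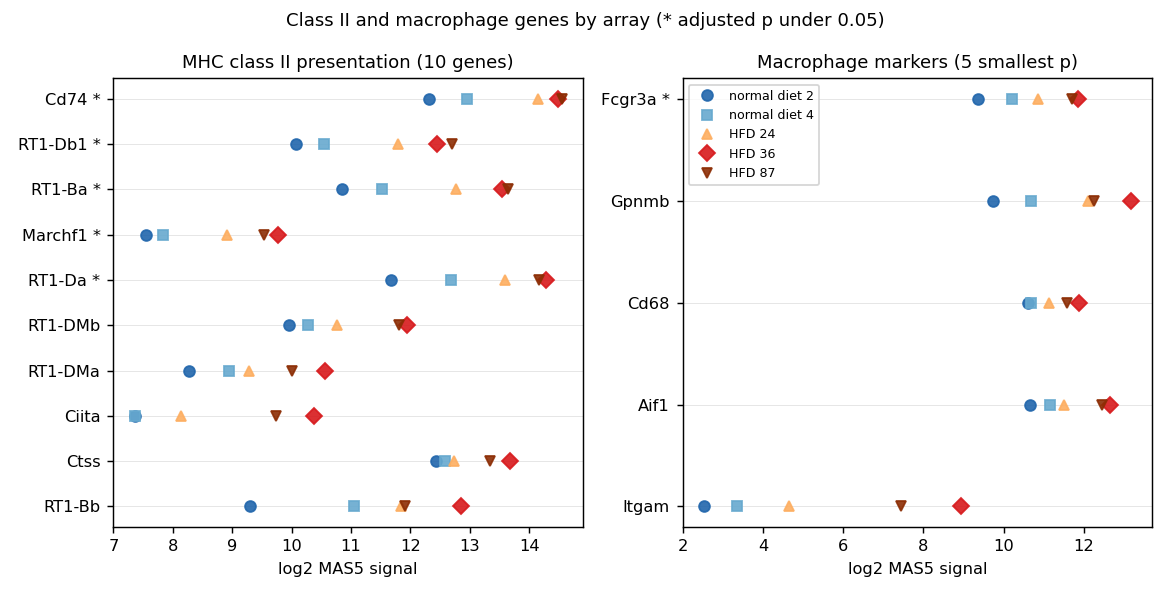
Log2 MAS5 signal (horizontal axis) of the 10 measured class II genes (left) and of the 5 macrophage markers with the smallest p (right), with 1 symbol per array and an asterisk on called genes. In all rows the 3 HFD symbols lie to the right of both normal diet symbols, and HFD 24 is the HFD symbol nearest to them.

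Class I presentation and interferon genes were less even. Of 17 class I genes 0 were called, 14 had a change above 0 and the median was 0.51 (0.29 without HFD 36), with 0.23 on HFD 24, 1.03 on HFD 36 and 0.56 on HFD 87. RT1-M3-1, a class I molecule, stood at 7.06 and 7.70 against 8.24, 9.57 and 8.56 (1.41 ± 0.33, adjusted p = 0.0764). The immunoproteasome subunits Psmb9 (11.41 and 11.18 against 11.95, 13.62 and 12.29) and Psmb10 (9.78 and 9.58 against 10.44, 11.62 and 10.23) lay higher on every HFD array, with HFD 36 above the others. Of 29 interferon responsive genes 0 were called and 19 had a change below 0. Irf8 and Gbp2, known targets of interferon gamma, lay higher. Irf8, a factor of macrophages and dendritic cells, had 9.23 and 9.62 against 10.54, 11.65 and 10.74 (1.55 ± 0.34, adjusted p = 0.0751), and the guanylate binding protein Gbp2 had 8.64 and 8.96 against 10.75, 12.89 and 11.58 (2.94 ± 0.67, adjusted p = 0.0774). Ifitm3, a membrane protein that blocks viral entry, lay lower (-0.88 ± 0.23), and Ifit1 differed by 3.44 log2 units between the 2 normal diet arrays. The list's median of -0.19 ranged from -0.62 to 0.19 with single arrays left out or another scaling. A spaced form of the interferon response element lay in the promoters of 14 of 22 of these genes (63.6%) and in 3.77% of all genes, among the class II genes in 1 of 8.

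Most macrophage and Kupffer cell markers lay higher, least so on HFD 24. Of 26 measured markers 1 was called higher, 24 had a change above 0, 11 had groups that did not overlap (17.5% over all genes) and the median was 0.78. The median shift was 0.18 on HFD 24, 1.22 on HFD 36 and 0.97 on HFD 87. The summed linear signal of the tested markers was 71356 and 85035 on the normal diet and 86215, 150342 and 125220 on the HFD, and no marker stood at 0. Fcgr3a, a receptor for antibody, was the called marker: it rose from 9.35 and 10.20 to 10.85, 11.85 and 11.71 (1.69 ± 0.30, adjusted p = 0.0441). Gpnmb, a glycoprotein of lipid-laden macrophages, stood at 9.74 and 10.68 against 12.11, 13.18 and 12.25 (2.30 ± 0.49, adjusted p = 0.0698). Cd68, a lysosomal glycoprotein of macrophages, had 0.90 ± 0.20 (adjusted p = 0.0712) and Aif1 1.31 ± 0.30 (adjusted p = 0.0764). Itgam, an integrin of recruited monocytes, stood at 2.52 and 3.35 against 4.63, 8.93 and 7.43, a range of 4.30 within the HFD group (4.06 ± 0.97). The most abundant markers did not all follow. Cd5l had 0.88, but Mpeg1 had 0.08 with another probe set at -0.28. The change of Clec4f turned sign without normal diet 2 and without HFD 87. Without HFD 24, 13 markers were called higher, in a fit that called 255 of 9467 genes higher (2.69%), and without HFD 36 the median of the list was 0.51 and 0 were called. How far the number of macrophages takes part in the class II values was not tested.

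Of the 25 called genes that belong to no list, the 8 that follow were put side by side after their values were seen, and no count or test stands behind the grouping. Ptprcap, which binds the leukocyte phosphatase CD45, rose from 6.95 and 7.15 to 8.09, 9.15 and 8.47 (1.52 ± 0.28, adjusted p = 0.0441). Evi2b, a leukocyte membrane protein, rose by 1.37 ± 0.22, Pstpip1, a cytoskeletal adaptor of blood cells, by 1.39 ± 0.24, and Cd200r1l, a relative of an inhibitory myeloid receptor, by 0.98 ± 0.18. Pycard, the adaptor of the inflammasome, stood at 9.15 and 9.29 against 10.01, 10.18 and 10.37 and rose by 0.97 ± 0.17 (adjusted p = 0.0309). Fgl2, a prothrombinase of macrophages and endothelium, rose from 9.61 and 9.78 to 10.78, 11.38 and 11.54 (1.54 ± 0.24, adjusted p = 0.0194), and its other 3 probe sets past the signal filter had 0.91 to 1.16. Plscr1, an interferon-induced scramblase, rose by 1.42 ± 0.25 and Prkch, a protein kinase C of lymphocytes and epithelia, by 1.13 ± 0.21. In each of these genes the lowest HFD array lay above the higher normal diet array.

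Among 32 cytokines, chemokines and adhesion genes, Vcam1 and Ubd were called higher, 26 had a change above 0, 16 lay without overlap above the normal diet (17.5% over all genes) and the median was 1.02 (0.67 without HFD 36). Vcam1, which holds leukocytes to the vessel wall, rose from 9.21 and 9.49 to 10.74, 10.60 and 11.12 (1.47 ± 0.19, adjusted p = 0.00902), evenly over the HFD arrays. Ubd, a ubiquitin-like protein induced by tumour necrosis factor and interferon gamma, rose from 11.93 and 11.93 to 13.69, 14.86 and 13.90 (2.22 ± 0.28, adjusted p = 0.00969). The chemokines varied more. Cxcl9, which draws T cells, stood at 8.87 and 9.46 against 10.95, 13.59 and 11.19 (2.75 ± 0.70, adjusted p = 0.102), Cxcl16 had 1.49 ± 0.33 (adjusted p = 0.0729), and Ccl3, which draws monocytes, had 1.62 ± 0.42. Ccl2, another monocyte chemokine, stood at 5.90 and 6.21 against 7.31, 10.54 and 7.96, and the interleukin Il1b at 7.5 and 8.37 against 8.91, 10.79 and 9.83. In these 5 genes HFD 36 was the highest array, and the HFD 36 shift of the list was 1.5 against 0.52 for HFD 24 and 0.70 for HFD 87. Tnf stood at 5.41 and 5.12 against 5.23, 8.35 and 6.52, with overlapping groups.

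The B cell list held 1 called gene and the T and NK cell list held 0. Fcrla, an intracellular protein of B cells, rose from 7.04 and 6.86 to 9.38, 9.15 and 8.31 (2.0 ± 0.33, adjusted p = 0.0272), the only call among 8 B and plasma cell markers. The median of the list was 0.99, but 0.25 without normal diet 2. Fcrla was not called without normal diet 2, normal diet 4, HFD 36 or QHD 45. Blk, a kinase of B cells, had 1.07 ± 0.29 (adjusted p = 0.106). The summed linear signal of the B and plasma cell markers was 15145 and 13373 against 15792, 16957 and 16099. Such a sum leans on the most abundant members, here also Xbp1 and Sdc1 (-0.17), and does not measure the number of B cells. Of 18 T and NK cell markers 17 had a change above 0, with a median of 0.57 (0.32 without HFD 36). Coro1a, an actin regulator of leukocytes, stood at 8.27 and 8.66 against 9.21, 10.80 and 9.76 (1.46 ± 0.37, adjusted p = 0.102), and Nkg7, of cytotoxic granules, had 1.02 ± 0.33. Their summed signal was 3946 and 5405 against 5333, 11917 and 7558, so that HFD 24 lay within the normal diet range. The T cell genes Cd3d and Cd8b were under the signal needed for the test and are named after their values were seen. Cd3d stood at 2.0 and 3.94 against 6.22, 7.65 and 6.59, and Cd8b at 1.93 and 1.95 against 5.65, 6.46 and 5.29. Their normal diet signals were low in the range of the array, so the size of these rises is not exact. Other T and NK cell genes under that signal moved less. Cd4 (0.07), Cd2 (0.47), Cd28 (0.44) and Ncr1 (-0.02) had overlapping groups, while Cd3e (0.86) and Cd5 (0.78) lay higher on every HFD array.

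Neutrophil and mast cell markers did not follow. All 4 that were measured had a change below 0, led by S100a9 (-0.57 ± 0.55), and none reached an unadjusted p under 0.05. Hbb, a globin chain of red cells, stood at 12.53 and 12.55 against 13.61, 13.58 and 13.06 (0.88 ± 0.25, adjusted p = 0.131), and Alas2, the red cell enzyme of heme synthesis, had 0.92 ± 0.29. Hbb and Alas2 lay higher on every HFD array. Slc4a1, an anion exchanger of red cells under the signal needed for the test, lay the other way. It stood at 7.11 and 7.21 against 6.30, 6.90 and 5.27, lower on every HFD array. The part of blood left in the tissue in the leukocyte values was not tested. Lcn2, an iron-scavenging acute phase protein, stood at 8.35 and 8.91 against 11.39, 13.45 and 11.93 (3.62 ± 0.67, adjusted p = 0.0515). Most of the other 35 acute phase and complement genes did not follow, since 27 of the 36 had a change below 0 and the median was -0.06. Mbl2, a lectin that starts complement, had -0.38 ± 0.11 and C5 -0.39 ± 0.14. The 15 coagulation genes held 0 calls, with a median of -0.11.

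Endothelial cells gave 1 called gene of 17, Plvap, which forms the diaphragms of fenestrae. It rose from 8.64 and 8.83 to 9.51, 9.96 and 9.74 (1.0 ± 0.16, adjusted p = 0.0244), while the list's median was -0.08 and Lyve1, of sinusoidal endothelium, had -0.28 ± 0.13. Of 16 stellate cell and myofibroblast markers 0 were called, 15 had a change above 0 and the median was 0.44. Des, desmin of stellate cells, stood at 6.19 and 6.37 against 7.03, 7.16 and 6.99 (0.78 ± 0.25, adjusted p = 0.166), and Acta2, smooth muscle actin of myofibroblasts, had 0.25 ± 0.30 with overlapping groups.

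Matrix genes lay higher on all HFD arrays without a call. Of 27 collagens, laminins and matrix genes 23 had a change above 0, 17 lay without overlap above the normal diet (17.5% over all genes) and the median was 0.44, and the median shifts were 0.53 on HFD 24, 0.35 on HFD 36 and 0.46 on HFD 87. Unlike the macrophage list, this list was not lowest on HFD 24, a difference that was not tested. Col4a5, a basement membrane collagen, stood at 8.08 and 7.69 against 9.50, 8.68 and 9.28 (1.27 ± 0.25, adjusted p = 0.0515). Col3a1, a fibrillar collagen, stood at 11.25 and 11.62 against 12.10, 12.29 and 12.11 (0.72 ± 0.25), Col6a3 had 0.99 ± 0.32 and Fbn1, fibrillin, 0.65 ± 0.21. Lox, which cross-links collagen, stood at 6.81 and 8.14 against 11.61, 8.77 and 8.72, so that its change of 2.22 ± 0.79 rested mostly on HFD 24. Col1a1 had 0.72 ± 0.43.

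Cell division genes lay higher, again most on HFD 36. Prc1, which bundles the microtubules of the dividing spindle, was the only call among 28. It stood at 3.78 and 4.32 on the normal diet, low in the range of the array, and at 6.37, 7.81 and 7.82 on the HFD (3.29 ± 0.45, adjusted p = 0.00969), and the size of a rise from such a low signal is not exact. Of the list 27 had a change above 0, 14 lay without overlap above the normal diet (17.5% over all genes) and the median was 0.59 (0.36 without HFD 36), with shifts of 0.17 on HFD 24, 1.05 on HFD 36 and 0.52 on HFD 87. Mki67, a marker of cycling cells, stood at 5.73 and 5.76 against 6.31, 8.25 and 7.45 (1.59 ± 0.57), and Top2a at 5.93 and 5.51 against 6.35, 7.57 and 7.52 (1.43 ± 0.48). Every HFD array lay above the normal diet in both, and which cells were cycling was not tested.

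Proteasome subunits shifted by a small and even amount. Of 30 constitutive subunits 29 had a change below 0, 17 lay without overlap below the normal diet (10.8% over all genes), 15 reached an unadjusted p under 0.05 (4.8% over all genes, lower) and 0 were called. The median was -0.25, and the shifts were -0.24, -0.19 and -0.27 on HFD 24, 36 and 87. Psmd6 stood at 12.03 and 11.95 against 11.64, 11.68 and 11.57 (-0.36 ± 0.10, adjusted p = 0.106), and Psmc6, an ATPase of the cap, had -0.49 ± 0.14. The ribosomal proteins lay the other way by less, with 22 of 23 above 0 and a median of 0.12, led by Rpl3 (13.44 and 13.25 against 13.84, 13.74 and 13.76; 0.43 ± 0.11, adjusted p = 0.0965). Of 18 heat shock chaperones 14 had a change below 0 (median -0.16), of which Hsph1 (-0.65 ± 0.19) had the smallest p. Of 29 genes of the unfolded protein and integrated stress responses 19 lay above 0 (median 0.07), and Ddit3, a factor of that response, had 0.75 ± 0.23. None of these 4 lists held a called gene. Among 34 lysosome genes Ctsz, a cathepsin, came nearest, at 9.85 and 10.03 against 10.68, 11.87 and 11.18 (1.31 ± 0.27, adjusted p = 0.0652).

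Clock genes differed widely without passing. Of 18 measured members 0 were called and 9 lay on each side of 0. Cry1, a repressor of the clock, stood at 10.02 and 9.74 against 7.98, 8.49 and 8.77 (-1.46 ± 0.29, adjusted p = 0.0546), and Rora, an activator of it, at 9.09 and 9.05 against 8.29, 8.27 and 8.08 (-0.86 ± 0.19, adjusted p = 0.0698). Nr1d1, the repressor REV-ERB alpha, stood at 5.69 and 6.69 against 9.93, 7.76 and 8.59 (2.57 ± 0.58, adjusted p = 0.0764), and Bhlhe41, another repressor, at 4.19 and 4.94 against 7.72, 9.39 and 6.58 (3.33 ± 0.80, adjusted p = 0.0859). These 4 had the smallest p of the list, and in all 4 the diet groups did not overlap. The HFD arrays were up to 2.81 log2 units apart in Bhlhe41. Of the 18 members, 3 lay without overlap above the normal diet (17.5% over all genes) and 4 below it (10.8%). The mRNAs of these genes rise and fall through the day, and the sources used here do not give the hour of collection, so diet and hour cannot be told apart.

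Among the HFD arrays, HFD 24 and HFD 36 were furthest apart. Pair by pair over all genes tested, normal diet 2 and 4 had a median absolute difference of 0.208 log2 units, with 247 genes over 1. HFD 24 and HFD 87 were as close (0.205, 246 genes), and HFD 36 and HFD 87 had a like median (0.206) with 356 genes over 1. HFD 24 and HFD 36 had 0.273 and 645 genes. Cyp1a1, a cytochrome P450 induced through the aryl hydrocarbon receptor, had the widest range, at 9.22 and 7.20 on the normal diet and 1.69, 8.13 and 1.02 on the HFD, so that HFD 36 lay among the normal diet arrays and the other 2 near the floor of the array. Usp2 (10.20, 5.24 and 8.39 on HFD 24, 36 and 87), Dbp (9.84, 6.15 and 6.55) and Per1 (8.78, 5.10 and 7.87), all known to cycle with the clock, also split the HFD group. Zfp354a, a zinc finger factor, stood at 12.84, 8.76 and 10.72, and Saa3, an acute phase protein of macrophages, at 5.74, 9.59 and 5.54 against 3.26 and 3.17 on the normal diet. Snrpa, a splicing protein, spread from 4.06 to 8.05. In 5 of the 8 genes with the widest HFD range the diet groups overlapped, while in Itgam, Saa3 and Dbp they did not.

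The normal diet arrays were furthest apart in Slpi, a protease inhibitor (6.48 and 10.62), Pdk3, a pyruvate dehydrogenase kinase (2.94 and 7.0), Arhgap4 (2.66 and 6.18) and the interferon gene Ifit1 (6.23 and 9.67). In the first of these, normal diet 4 stood near the HFD arrays (11.11, 11.53 and 10.73). Among the immediate early genes, which answer quickly to handling and stress, 0 of 25 were called. Klf10 stood at 8.87 and 9.56 against 10.64, 10.17 and 9.98 (1.05 ± 0.27, adjusted p = 0.0981), and Myc at 10.48 and 9.85 against 7.93, 9.27 and 8.95 (-1.45 ± 0.41, adjusted p = 0.138). Gadd45a, a stress-induced growth arrest gene, had -1.16 ± 0.37 and Klf2 -0.78 ± 0.24, so the list held changes in both directions.

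**Figure D4:**
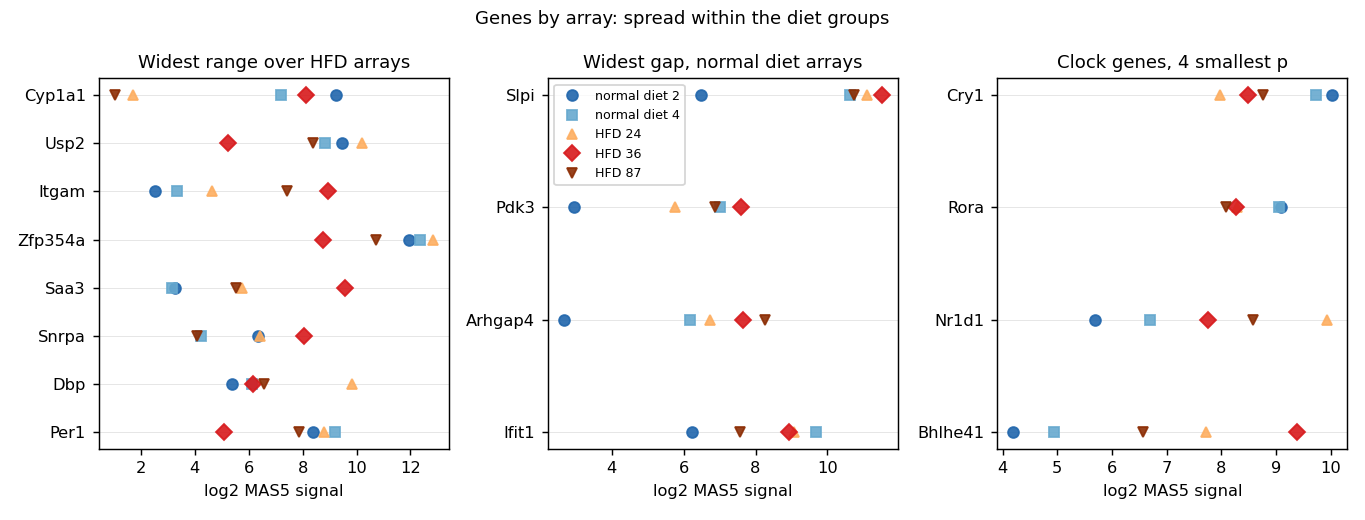
Log2 MAS5 signal (horizontal axes) on each of the 5 arrays for the 8 genes with the widest range over the HFD arrays (left), the 4 with the widest gap between the normal diet arrays (middle) and the 4 clock genes with the smallest p (right). Cyp1a1 spans from 1.02 to 8.13 within the HFD group, while in the clock genes of the right panel the diet groups do not overlap.

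The 3 HFD arrays did not stand equally far from the normal diet. Among the 50 called genes, HFD 24 was the HFD array nearest to the normal diet mean in 32 and HFD 36 the farthest in 28. Over all genes tested, 431 and 392 genes differed by more than 1 log2 unit between HFD 24 and normal diet 2 or 4, 939 and 727 for HFD 36, and 575 and 372 for HFD 87, where the normal diet arrays differed by that much from each other in 247. The count of called genes moved with single arrays: leaving out HFD 24 gave 309, leaving out HFD 87 gave 28 and leaving out normal diet 2 gave 12. With normal diet 3 in the fit, 0 of 9485 genes passed by limma, and 590 reached an unadjusted p under 0.05, against 474 by chance. Whichever of the 11 arrays was left out, 8 genes stayed called, namely Tm7sf2, Msmo1, Cyp51, Idi1, Ebp, Cd74, Evl and Inf2. Thus 5 of these 8 were cholesterol synthesis enzymes and 1 was of class II. Of the 9459 genes tested, 16 are in the cholesterol list and 10 in the class II list. Both lists were drawn up with earlier results of these data known, so the count is not independent evidence.

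The remaining called genes belong to none of the lists. Inf2, a formin that builds actin filaments, rose from 8.20 and 7.48 to 9.36, 10.16 and 9.66 (1.89 ± 0.25, adjusted p = 0.00902), and Evl, which extends actin filaments, from 7.75 and 7.28 to 8.84, 9.45 and 9.19 (1.64 ± 0.22, adjusted p = 0.00902). Both actin regulators lay above the normal diet on every HFD array by more than 1 log2 unit. Vopp1, a protein of intracellular vesicles, rose from 6.88 and 6.84 to 8.25, 10.03 and 9.20 (2.30 ± 0.40, adjusted p = 0.0343), with HFD 36 highest. Tmtc1, a mannosyltransferase of the endoplasmic reticulum, rose by 1.64 ± 0.24 and Eeig2 by 1.31 ± 0.24. Tmem86a, a hydrolase of lysoplasmalogens, rose from 8.18 and 8.31 to 9.25, 9.26 and 9.19 (0.99 ± 0.13, adjusted p = 0.00902), and its HFD arrays differed by only 0.07.

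Zfp36l2, which marks mRNAs for decay, rose by 0.97 ± 0.15, Svbp, a partner of the tubulin-trimming vasohibins, by 0.92 ± 0.15, and Sat1, which acetylates polyamines, by 0.74 ± 0.12. Cst3, cystatin C, an inhibitor of cathepsins, rose from 12.29 and 12.21 to 13.02, 12.80 and 12.89 (0.65 ± 0.11, adjusted p = 0.0286). Adamtsl4, a secreted protein of the fibrillin matrix, fell from 10.86 and 10.65 to 9.59, 9.56 and 9.97 (-1.05 ± 0.18, adjusted p = 0.0309). Irf2bp2, a corepressor, fell from 12.29 and 12.38 to 11.76, 11.62 and 11.57 (-0.69 ± 0.12, adjusted p = 0.0298). The last called gene has only a placeholder symbol. For 15 of the called genes a further probe set passed the signal filter, 18 probe sets in all, and all 18 had the same sign, from -1.78 to 2.84.

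The QHD and GC rats ate the HFD too, and their arrays show where these genes stood in other HFD-fed livers. These values are descriptions, since the genes were chosen for the difference between HFD and normal diet and all 3 contrasts share the normal diet arrays. Of the 31 genes called higher, the QHD mean lay between normal diet and HFD in 17 and beyond the HFD in 14, and the GC mean lay between in 6 and beyond in 25. Of the 19 called lower, the QHD mean lay between in 9, beyond the HFD in 8 and on the far side of the normal diet in 2, and the GC mean lay between in 10 and beyond the HFD in 9. No called gene that was higher on the HFD had a QHD or GC mean at or under that of the normal diet.

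Tm7sf2 stood at a mean of 11.69 on the normal diet, 8.69 on the HFD, 8.68 with QHD and 9.03 with GC. Cd74 had means of 12.64, 14.39, 14.29 and 14.71 in the same order. Both genes thus lay close to their HFD level in all HFD-fed groups. Gclm and Ugt2b1 were the exceptions with QHD: Gclm had means of 12.37, 11.50, 12.70 and 12.12, and Ugt2b1 had 13.77, 12.77, 14.15 and 13.05. Insig1 was lowest with GC, at a mean of 9.89 against 13.26 on the normal diet and 11.94 on the HFD.

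**Figure D5:**
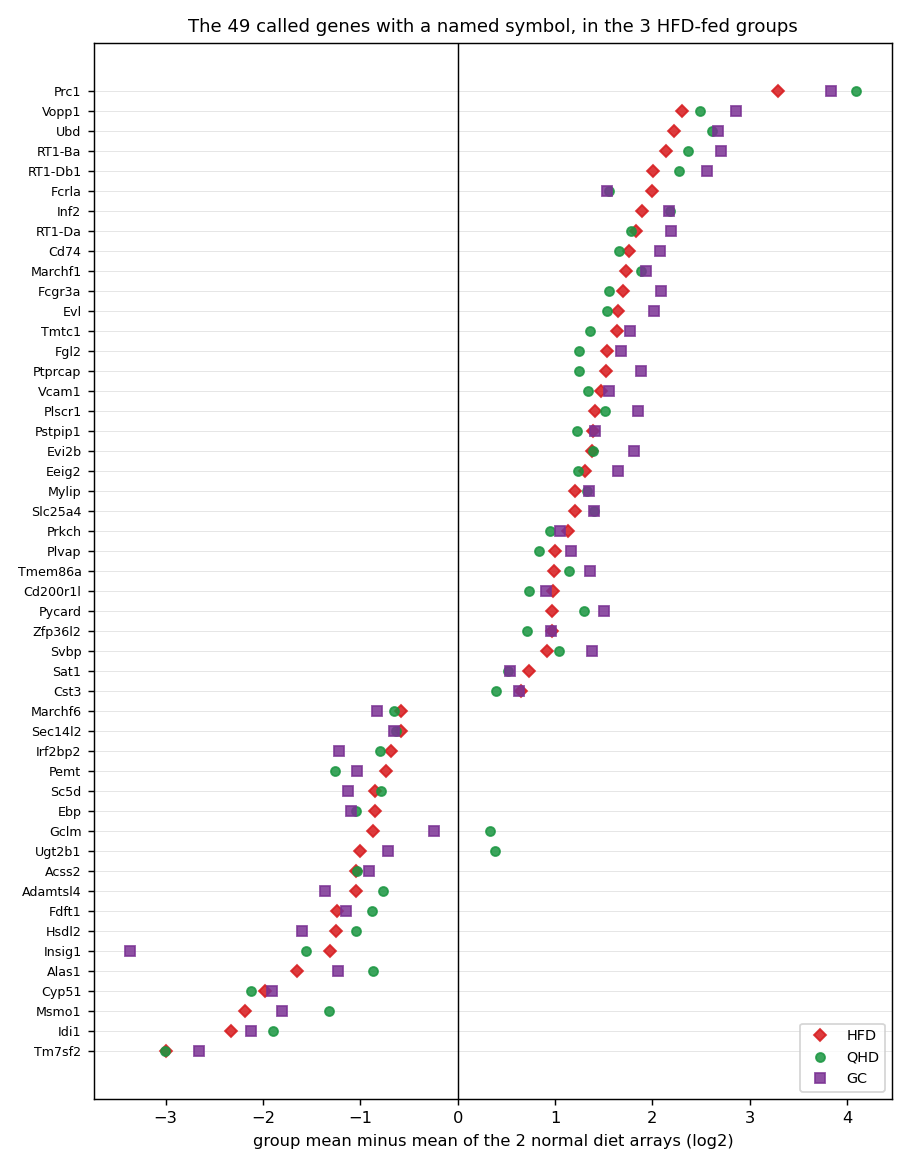
Mean log2 signal of the HFD, QHD and GC groups minus the mean of the 2 normal diet arrays (horizontal axis), for the 49 called genes with a named symbol, ordered by the HFD difference; each symbol is a mean of 3 arrays and the vertical line marks the normal diet. All 3 groups lie on the same side of the line in every gene but Gclm and Ugt2b1, whose QHD means lie above the normal diet.

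A panel of genes often measured in fatty liver gave 0 calls among its 20 measured members, and 3 more were under the signal needed for the test. The values of Il1b, Srebf1, Ccl2, Scd, Cd36, Mttp, Tnf, Fasn, Cpt1a, Cyp7a1 and Plin2 are given above. Of the others, Acaca, the acetyl-CoA carboxylase, had 0.35 ± 0.28, Fgf21, a hormone of the fasted liver, 0.48 ± 0.66, Nr1h4, the bile acid receptor FXR, 0.05 ± 0.21, and the adiponectin receptors Adipor1 and Adipor2 0.10 ± 0.10 and -0.29 ± 0.17. Their diet groups overlapped, so that no difference was detectable with this number of arrays.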

How the data were processed

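The deposited values were log2 MAS5 signals that the authors made with the Affymetrix Expression Console software, as the submitters' processing notes state. Per the labels' protocols, 6 µg of total RNA was taken from each liver. Each array had been scaled to a common trimmed mean. The authors' deposited table also gives a p-value and a fold per probe set, which use all 3 normal diet arrays. The sources used here give no detection calls and no program versions.

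Probe sets with 1 symbol were kept, and each gene was represented by its probe set of highest mean signal. A gene was tested where that mean was above 6.66, the median over all probe sets. Limma 3.58.1 in R 4.3.3 (moderated variances, trend, robust) was fitted to 11 arrays with 1 mean per group, leaving 7 residual degrees of freedom, and tested HFD minus normal diet. The SE is the moderated one. P-values were adjusted by Benjamini-Hochberg over 9459 genes. With single arrays of a group left, that array is assumed to vary like the others. The fit was tested on simulated data. Medians and counts of lists are descriptions. Promoter motifs were searched in a RefSeq table of 27457 genes (GRCr8).

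The arrays, lists and members were chosen with earlier results of these data known. Most genes were named where called with groups that did not overlap (placeholder symbols left out), or as up to 4 further genes of a list with the smallest p, a fatty liver panel, the 8 and 4 genes with the widest spread within the diet groups, or the most abundant cell markers. Some genes were named outside these rules, with earlier results of these data known. Among them were Lox, Psmb10, Irs2, Slc25a20, Lipc, RT1-Bb, Alb, Apoa1 and members under the signal needed for the test. The labels do not say whether arrays shared a cage, an extraction or a hybridisation, so p-values measure only the spread between these samples. Alternatives covered the arrays in the fit, weights, the variance model, scaling, an offset, the signal filter, the probe set per gene and the authors' p-values.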

Additional observations from a re-analysis of the deposited data

Results flagged for a closer look

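The array labelled normal diet 3, which no comparison used, had a median log2 signal of 13.01 over 12 adipocyte markers. The other 11 arrays had 6.17 to 7.83. It is given here because this signal lies in data outside the comparison and far above the level of the other normal diet arrays (6.86 and 6.17). Over 17 hepatocyte markers the same array had 6.24, against 14.63 to 15.06 on the other 11 arrays. No outlier test was run on other values, since groups of 2 or 3 arrays are too small for one.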

How the results depend on the processing

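The count of 50 called genes moved with the arrays in the fit. It was 0 with all 12 arrays (590 genes at an unadjusted p under 0.05, chance 474), 1 with only the 5 HFD and normal diet arrays, 267 with array weights and 4 without moderation of the variances. Leaving out single arrays gave 12 to 309, with 12 without normal diet 2, 28 without HFD 87 and 309 without HFD 24. The authors' deposited p-values gave 0 after Benjamini-Hochberg adjustment, with 699 of 31099 probe sets under 0.05 where chance gives 1555, and 10 of the 50 called genes were among them. Quantile normalization (43), an offset of 32 (49), no signal filter (57), a mean above 8 (60), all probe sets (60), the mean of a gene's probe sets (45) and no trend or robust option (34) kept the count within 1.5 times. Over the 12 arrays 7 called genes turned sign. There the log2 change of Alas1 was 0.0122, the log2 change of Ebp was 0.26, the log2 change of Sc5d was 0.27, the log2 change of Pemt was 1.17, the log2 change of Ugt2b1 was 1.72, the log2 change of Sec14l2 was 0.66 and the log2 change of Slc25a4 was -0.23. The 12 arrays include normal diet 3. Of 49 named called genes, 8 stayed called with any array left out, and Tm7sf2, Msmo1 and Ebp kept the call under every other setting over the 11 arrays. Irf2bp2, Cd200r1l, Ptprcap, Prkch, Insig1, Slc25a4 and Sec14l2 lost the call with quantile normalization. The medians of cholesterol synthesis ranged from -1.07 to -0.78 with single arrays left out or another scaling. Genes without overlap made up 27.9% with quantile normalization and 26.2% without the filter. No paired analysis was possible because the replicate numbers differ between the groups. Signals near the floor of the array, such as those of Prc1, Itgam and Cyp1a1, limit the size of a change, since their detection calls are not used here.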
